A study of Mus musculus with 16 samples.

Results

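The mRNA of 10 genes of the epithelial inflammasomes, out of 45513 genes in the count tables, was examined in sorted epithelial cells of the mouse small intestine. They were the sensors *Nlrp9b*, *Nlrp6*, *Naip1*, *Naip2*, *Naip5* and *Naip6*, the adaptor *Nlrc4*, the protease *Casp1*, and its substrates *Il18* and *Gsdmd*. Each symbol matched 1 Ensembl gene. They were selected with the difference between the sorted fractions already known, and *Nlrp9b* for its very low level in one of them. The values for that difference are therefore given as a description, with no test.

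Inflammasomes are protein platforms that assemble in the cytosol when a sensor of the NLR family meets a microbial product, and they activate the protease caspase-1. In the NAIP/NLRC4 inflammasome the NAIP proteins bind bacterial flagellin or parts of the bacterial needle complex and then recruit NLRC4. NLRP6 and NLRP9 are sensors known from the intestinal epithelium, and NLRP9B has been described as a sensor of rotavirus RNA. Active caspase-1 matures the cytokine IL-18 and cuts gasdermin D, whose released part forms pores in the plasma membrane, and infected enterocytes die and are shed.

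The series holds 16 libraries from 8 mice, with a tdTom+ and a tdTom- library from each animal. The mice were homozygous for Atoh1(WT)CreERT2, in which the tamoxifen-inducible recombinase CreERT2 lies downstream of the *Atoh1* coding sequence at its own locus, and carried the reporter R26RtdTom, which makes the red protein tdTomato after recombination. All were of C57BL/6 background, males and females of 8 to 16 weeks, and all had received tamoxifen, so no group was without the alleles or the drug. The dose was 1 mg of tamoxifen per day on 3 consecutive days. Crypt-enriched fractions of the proximal small intestine were dissociated, and live EpCAM+ cells (EpCAM is a surface protein of epithelium) were sorted into tdTom+ cells, which had expressed *Atoh1* or descend from such cells, and tdTom- cells, the remaining epithelium.

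Assigned counts ranged from 17116405 to 25323567 per library. Levels are given as CPM, counts scaled to a common library size by the trimmed mean of M-values (TMM). *Atoh1*, the transcription factor gene of secretory progenitors, averaged 62.5 ± 12.7 CPM in the tdTom+ and 0.718 ± 0.247 CPM in the tdTom- libraries (SD, n = 8 each), and *Epcam* was at 942 ± 56.6 and 1019 ± 53.8 CPM. All 8 genes of each of the goblet, Paneth and enteroendocrine marker lists were higher in tdTom+, and all 8 of the absorptive list, led by *Apoa4* and *Apoa1*, were lower. The tdTom- libraries of mice 7 and 8 stood apart from the other tdTom- libraries. Their summed level of 8 lymphocyte markers, led by *Gzma*, was 132 and 144 CPM against 10.3 to 38.7 CPM in the other mice, and their summed absorptive level was 14550 and 24823 CPM against 27682 to 38346 CPM. Of the 7 tuft markers that passed the filter on low counts, of 8 listed, 5 were higher in tdTom+. Of the 3 stromal markers that passed it, of 8 listed, 1 was higher, *Vim*. None of 8 proliferation markers differed in either direction (edgeR, 0 of 8 at an unadjusted p under 0.05 as well). Lower were 4 of 8 lymphocyte markers, 2 of the 3 myeloid markers that passed (8 listed) and all 3 distal markers that passed (5 listed). Of all 15323 genes tested, 22.7% were higher and 27.0% lower in tdTom+ (edgeR, adjusted p under 0.01). Results that rest on mice 7 and 8 are given with and without them, an alternative chosen after seeing the data.

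Because *Naip* and *Nlrp9* genes are families of near copies, and reads were 50 bases long, the share of each gene's 50-base windows that also occur in transcripts of another gene (GENCODE M21, GRCm38) was counted. It was 36.9% for *Naip5*, 31.5% for *Naip1*, 21.5% for *Naip6*, 19.1% for *Naip2* and 7.79% for *Nlrp9b*. It was 1.09% for *Nlrc4* and 0 for *Nlrp6*, *Casp1*, *Il18* and *Gsdmd*. The gene that shared the most windows was *Naip3* for *Naip1* (22.5% of its windows), *Naip1* for *Naip2* (12.3%), *Naip6* for *Naip5* (22.3%) and *Naip5* for *Naip6* (16.9%), and *Naip3* was the second for *Naip5* (14.5%) and *Naip2* (10.7%). A read from such a window was counted once, at its primary alignment, so the division of counts among the *Naip* genes is uncertain, while the last 5 genes are little touched or untouched by this. No exon of the 10 genes overlapped an exon of another gene on either strand.

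The closest pair was *Naip5* and *Naip6*, with 97.3% identity over 2112 aligned bases of their largest coding exon, against 88.0% to 89.1% for every other pair of the 4 *Naip* genes. The following window is the first that the exons of both genes hold without a difference, at chr13:100223258-100223307 in *Naip5* and chr13:100300545-100300594 in *Naip6* (GRCm38, minus strand), and a read from it could not be told to be from either gene.
Naip5 and Naip6: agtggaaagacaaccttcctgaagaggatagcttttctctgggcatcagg
The next window, of 60 bases of the same exon without a gap, is the one in which the 4 genes differed at the most positions, 36 of 60, shown in capitals. It lies on the minus strand at chr13:100425696-100425755 in *Naip1*, chr13:100160435-100160494 in *Naip2*, chr13:100221767-100221826 in *Naip5* and chr13:100299054-100299113 in *Naip6*.
Naip1: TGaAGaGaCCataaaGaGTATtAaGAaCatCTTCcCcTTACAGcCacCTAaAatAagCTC
Naip2: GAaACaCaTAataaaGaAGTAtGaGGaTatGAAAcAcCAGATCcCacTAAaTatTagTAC
Naip5: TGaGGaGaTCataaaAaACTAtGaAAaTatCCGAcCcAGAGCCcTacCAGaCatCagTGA
Naip6: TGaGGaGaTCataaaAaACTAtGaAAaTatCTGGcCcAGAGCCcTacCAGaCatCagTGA
Even in this window *Naip5* and *Naip6* carried nearly the same letters, whereas *Naip1* and *Naip2* were distinct from both and from each other.

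The *Nlrp9* genes were further apart, with 78.2% to 83.7% identity in their largest coding exon. The corresponding most divergent window of 60 bases is shown for chr7:20023872-20023931 in *Nlrp9b* (plus strand), chr7:26557994-26558053 in *Nlrp9a* (plus strand) and chr7:26385058-26385117 in *Nlrp9c* (minus strand), with the 40 differing positions in capitals.
Nlrp9b: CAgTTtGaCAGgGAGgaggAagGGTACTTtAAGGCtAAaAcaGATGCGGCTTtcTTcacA
Nlrp9a: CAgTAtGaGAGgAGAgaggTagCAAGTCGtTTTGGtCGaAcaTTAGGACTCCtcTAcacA
Nlrp9c: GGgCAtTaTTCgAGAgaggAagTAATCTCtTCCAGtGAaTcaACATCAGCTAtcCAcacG
Among the 3 genes, with gene models of 3482 bases for *Nlrp9b*, 3479 for *Nlrp9a* and 5935 for *Nlrp9c*, *Nlrp9b* took 98.6% ± 0.281 of the *Nlrp9* level per length, counts divided by the length of the gene model, in tdTom- (SD, n = 8). *Nlrp9a* held 1.02% ± 0.233 and *Nlrp9c* 0.379% ± 0.106, with at most 66 and 43 counts in a library. In tdTom+ neither *Nlrp9a* nor *Nlrp9c* exceeded 4 counts in a library, and both were below the filter on low counts in the whole series. The *Nlrp9* signal was therefore almost wholly that of *Nlrp9b*.

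The sequences before the start sites followed another pattern than the exons. Over 300 bases around the start (RefSeq, GRCm38.p6), *Nlrp9a* and *Nlrp9c* had 96.4% identity over 253 aligned bases, and *Nlrp9b* aligned to them with 44.0% and 43.1%. Shown are the 100 bases before the start of *Nlrp9b* (chr7:20007923-20008022, plus strand), those before the start of *Nlrp9a* (chr7:26534923-26535022, plus strand), and the stretch of *Nlrp9c* aligned with the latter (chr7:26403745-26403844, minus strand), in which the 1 base that differs from *Nlrp9a* is in capitals.
Nlrp9b: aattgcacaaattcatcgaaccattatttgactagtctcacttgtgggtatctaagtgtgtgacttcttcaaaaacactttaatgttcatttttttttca
Nlrp9a: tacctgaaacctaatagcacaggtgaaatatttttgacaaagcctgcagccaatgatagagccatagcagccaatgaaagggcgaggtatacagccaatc
Nlrp9c: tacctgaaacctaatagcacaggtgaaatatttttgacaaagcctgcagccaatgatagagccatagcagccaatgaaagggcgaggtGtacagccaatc
The member of the family with the abundant transcript was the one whose upstream sequence differed from the others. Whether the upstream sequence has a part in the level was not tested. Of the 10 genes, 9 had an entry in the RefSeq table. For *Il18*, *Naip1*, *Naip2*, *Naip5* and *Naip6* the RefSeq start was not that of the gene model in the counts. The window of *Il18* lay at chr9:50554450-50554749 and its gene model at chr9:50575273-50581837. These 9 promoters were searched on both strands for AAAGTCCA (known from HNF4 factors), AGATAA (known from Gata-type zinc finger factors) and TTTATG (known from CDX factors), which occur in 1.25%, 11.4% and 12.1% of all 27025 gene promoters of that length. The only match was AGATAA in *Naip6*, 180 to 185 bases before its RefSeq start, and the absence of the other letters from these windows says nothing of the factors.

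Of the 10 genes, 9 had a lower mean level in tdTom+. For 5 of them, *Nlrp9b*, *Nlrp6*, *Casp1*, *Il18* and *Gsdmd*, every tdTom+ library lay below every tdTom- library, and since the genes were selected on this contrast nothing is read from these counts. Among all 15323 genes that passed the filter on low counts the libraries of tdTom+ lay wholly below those of tdTom- in 16.98%. Log2 fold changes (tdTom+ against tdTom-) and their SE are from edgeR. In bulk samples, fewer cells that express a gene and less of its RNA per cell cannot be told apart.

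**Figure D1:**
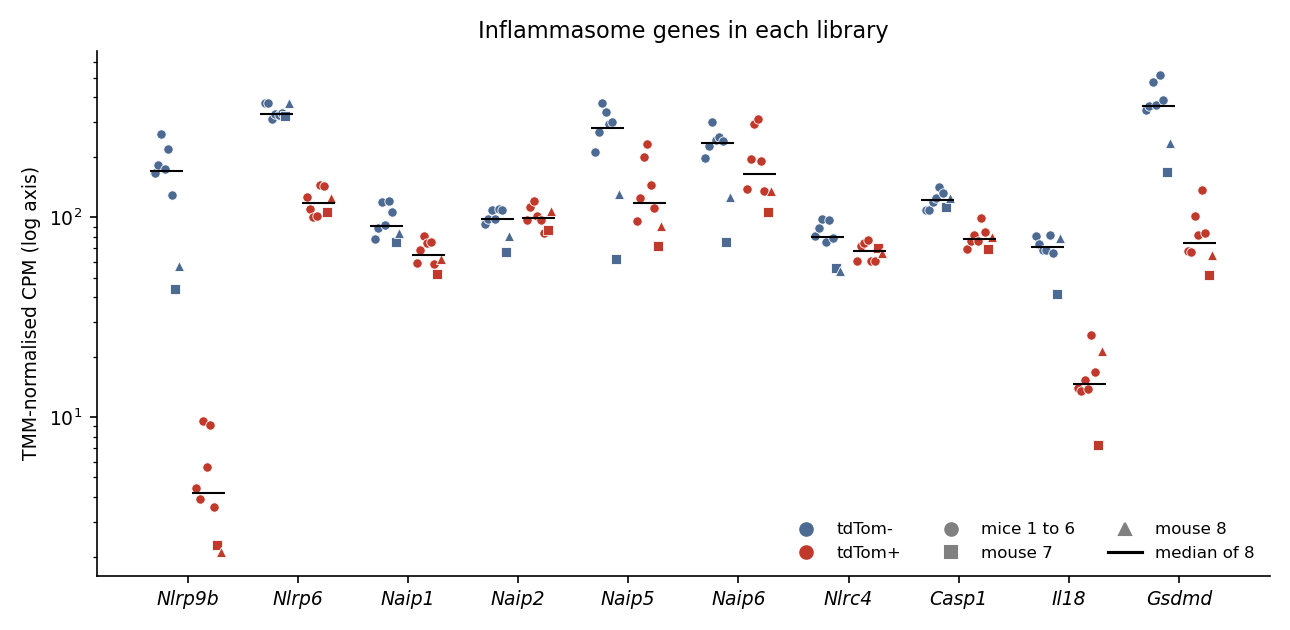
TMM-normalised CPM of the 10 genes in each of the 16 libraries on a log axis, with tdTom- in blue, tdTom+ in red, squares for mouse 7, triangles for mouse 8 and a black line at the median of 8. For *Nlrp9b* the tdTom+ libraries lay between 2.12 and 9.62 CPM and the tdTom- libraries between 43.7 and 263 CPM, while the fractions overlapped for all 4 *Naip* genes and *Nlrc4*.

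*Nlrp9b*, the rotavirus sensor (ENSMUSG00000060508, chr7:20008023-20073306), had the largest difference of the 10. In tdTom- its lowest, median and highest levels over the 8 mice were 43.7, 171 and 263 CPM, from 958 to 5434 counts. In tdTom+ they were 2.12, 4.16 and 9.62 CPM, from 46 to 215 counts. The fractions did not overlap, and the lowest library of each fraction came from mouse 7 or mouse 8. Within a mouse, the tdTom+ level was 2.13% to 5.27% of the tdTom- level, with a median of 3.45%. The log2 fold change was -4.93 with an SE of 0.42, and -4.97 with an SE of 0.26 without mice 7 and 8. It ranked lowest among the 9416 genes with at least 10 CPM in a fraction, a rank that was known when the gene was chosen. Its mean in tdTom+ was 3.29% of that in tdTom-, beside 8.31% to 19.3% for the 8 absorptive markers, and the part of absorptive cells in its tdTom+ signal was not tested.

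*Nlrp6* (ENSMUSG00000038745, chr7:140920902-140929192), a sensor of microbial and viral ligands in the gut epithelium, lay at 313, 331 and 373 CPM in tdTom- (lowest, median, highest) and at 101, 118 and 145 CPM in tdTom+. The fractions did not overlap, and in each mouse the tdTom+ level was 29.7% to 44.7% of the tdTom- level. Its log2 fold change was -1.51 with an SE of 0.09. Mice 7 and 8 were not low for this gene, at 321 and 372 CPM in tdTom-, unlike for *Nlrp9b*.

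The NAIP genes lie side by side on chromosome 13 and differed in how the fractions compared. *Naip1*, a sensor of the needle protein (ENSMUSG00000021640, chr13:100407770-100446406), had a lowest, median and highest level of 75.0, 90.2 and 121 CPM in tdTom- and 52.3, 65.2 and 80.4 CPM in tdTom+, and it was lower in tdTom+ in 8 of 8 mice although the fractions overlapped. Its log2 fold change was -0.53 with an SE of 0.12. *Naip2*, a sensor of the rod protein of the needle complex (ENSMUSG00000078945, chr13:100144063-100202092), lay at 66.9, 98.1 and 110 CPM in tdTom- and 84.0, 99.4 and 120 CPM in tdTom+. This was the 1 gene of the 10 with a higher mean in tdTom+, in 6 of 8 mice, with a log2 fold change of 0.08 and an SE of 0.10, and the sign turned to -0.01 without mice 7 and 8.

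*Naip5* and *Naip6* are the flagellin sensors, and each shared more windows with the other than with any further gene. *Naip5* (ENSMUSG00000071203, chr13:100211739-100246323) lay at 61.8, 281 and 374 CPM in tdTom- and 71.9, 118 and 234 CPM in tdTom+. It was lower in tdTom+ in 7 of 8 mice, with mouse 7 the exception. Its log2 fold change was -0.88 with an SE of 0.31, and -0.96 with an SE of 0.20 without mice 7 and 8. *Naip6* (ENSMUSG00000078942, chr13:100281121-100317674) lay at 75.5, 235 and 301 CPM in tdTom- and 107, 165 and 311 CPM in tdTom+, with a log2 fold change of -0.14 and an SE of 0.26. Leaving out 1 mouse at a time moved the latter from -0.25 (without mouse 4) to -0.05 (without mouse 6). Without mice 7 and 8 it was -0.20 with an SE of 0.19. The fractions overlapped for both genes, and mouse 7 was the lowest library of *Naip5* and *Naip6* in each fraction. With the counts of the 4 *Naip* genes summed, which removes the division among these 4, the log2 fold change was -0.40. *Naip3*, which lies outside this sum, had 493 to 1512 counts in tdTom- and 539 to 1444 in tdTom+, and with its counts added, an alternative chosen after seeing the data, the value was -0.40 as well.

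Within the summed level per length of the 4 *Naip* genes, *Naip5* held 39.2% ± 7.58 in tdTom- and 29.0% ± 4.09 in tdTom+ (SD, n = 8). The share of *Naip2* was 18.2% ± 4.37 in tdTom- and 25.2% ± 5.21 in tdTom+. *Naip6* held 26.0% ± 2.01 and 31.0% ± 3.38, and *Naip1* 16.6% ± 5.08 and 14.8% ± 2.06. The flagellin sensors thus took the larger part of the *Naip* level per length in both fractions, with *Naip5* ahead in tdTom- and *Naip6* ahead in tdTom+, in the order the primary alignments gave them.

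*Nlrc4*, the adaptor that all NAIP proteins recruit (ENSMUSG00000039193, chr17:74426295-74459108), lay close together in the fractions. Its lowest, median and highest levels were 53.9, 79.98 and 98.5 CPM in tdTom- and 60.2, 68.3 and 76.9 CPM in tdTom+. Levels were higher in tdTom+ in 3 of 8 mice, which included mice 7 and 8, at 56.1 and 53.9 CPM in tdTom- against 70.5 and 66.1 CPM in tdTom+. The log2 fold change was -0.22 with an SE of 0.12, and -0.36 with an SE of 0.09 without these mice. Leaving out 1 mouse at a time gave -0.28 (without mouse 7) to -0.08 (without mouse 3).

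*Casp1*, the protease (ENSMUSG00000025888, chr9:5298517-5307265), had a small difference that was the steadiest of the 10. Levels were 108, 122 and 142 CPM in tdTom- and 69.1, 78.2 and 99.7 CPM in tdTom+ (lowest, median, highest), with no overlap. Within each mouse the tdTom+ level was 61.1% to 70.1% of the tdTom- level, and the log2 ratio had an SD of 0.080 over mice, against 0.19 to 0.52 for the other 9 genes. The log2 fold change was -0.61 with an SE of 0.08.

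Both substrates of caspase-1 were at 17.4% to 31.8% of their tdTom- level in the tdTom+ library of every mouse. *Il18* (ENSMUSG00000039217, chr9:50575273-50581837) lay at 41.5, 71.2 and 81.5 CPM in tdTom- and 7.26, 14.7 and 25.9 CPM in tdTom+, and *Gsdmd* (ENSMUSG00000022575, chr15:75862339-75867404) at 168, 363 and 519 CPM and 51.2, 74.7 and 137 CPM. Neither overlapped between the fractions. The log2 fold changes were -2.12 with an SE of 0.20 for *Il18* and -2.12 with an SE of 0.22 for *Gsdmd*. The cytokine and the pore former thus differed by nearly the same ratio, with a median tdTom+ level of 21.2% and 22.0% of the tdTom- level of the same mouse, whereas the protease that acts on them was at 64.0%.

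**Figure D2:**
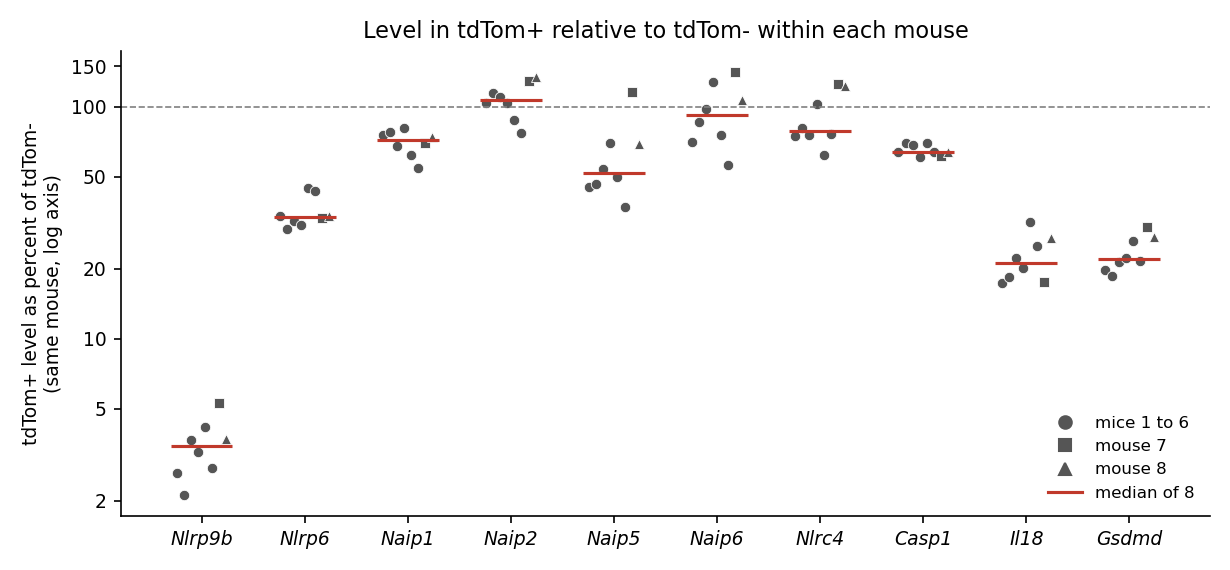
The tdTom+ level of each gene as a percent of the tdTom- level of the same mouse, on a log axis, with 1 point per mouse, squares for mouse 7, triangles for mouse 8 and a red line at the median of 8. The medians ran from 3.45% for *Nlrp9b* to 107% for *Naip2*, and the points of *Casp1* lay closest together.

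The order of the genes within a fraction was compared per length, as RPKM (CPM divided by the length of the gene model in kilobases). Neighbours in the order of mean log2 RPKM were compared within libraries over the 8 mice, by flipping the signs of their differences in an exact test (two-sided, smallest p 0.0078), with Benjamini-Hochberg adjustment over the 18 neighbour pairs of both fractions and a threshold of 0.05. The pairs were formed by sorting the means of the same libraries, a choice that the p does not account for. *Nlrp9b* was chosen for its low level in tdTom+, so its place there is a description. No p is given for the 3 pairs that include it. Gene models differed in length from 714 bases for *Il18* to 6827 bases for *Naip6*, and a model shorter or longer than the transcripts in these cells would shift that gene.

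In tdTom- the pore former *Gsdmd* stood first, at 201 ± 64.4 RPKM (SD, n = 8). It was above the second gene, *Il18* at 98.1 ± 18.0 RPKM, by 0.98 ± 0.39 on the log2 scale (SD, 8 of 8 mice, exact p = 0.0078, adjusted p = 0.035). Below it no neighbours differed past the threshold. *Casp1* followed at 81.4 ± 7.94 RPKM, *Nlrp6* at 67.3 ± 5.08, *Naip5* at 47.5 ± 20.4, *Nlrp9b* at 44.5 ± 21.7, *Naip6* at 30.5 ± 10.7, *Nlrc4* at 20.5 ± 4.36, *Naip2* at 19.7 ± 3.16 and *Naip1* at 17.8 ± 3.36 RPKM. Effectors thus lay above the sensors in mean level, and *Nlrp9b* stood in the middle of the sensors, next to *Naip5*, from which it differed by 0.13 ± 0.35, with *Naip5* the higher in 3 of 8 mice.

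In tdTom+ the order was another one. *Casp1* stood first at 53.2 ± 6.57 RPKM and *Gsdmd* followed at 46.1 ± 15.1 RPKM, a difference not past the threshold (exact p = 0.063, adjusted p = 0.094). *Gsdmd* was above *Naip6*, at 27.6 ± 11.2 RPKM, in 8 of 8 mice (0.78 ± 0.48, exact p = 0.0078, adjusted p = 0.035). Then came *Naip5*, *Nlrp6*, *Il18*, *Naip2* and *Nlrc4*, from 25.9 ± 10.9 down to 17.6 ± 1.76 RPKM, with no neighbours past the threshold. *Nlrc4* was above *Naip1*, at 12.4 ± 1.85 RPKM, by 0.52 ± 0.21 in 8 of 8 mice (exact p = 0.0078, adjusted p = 0.035). *Nlrp9b* was last, at 1.46 ± 0.825 RPKM, 3.23 ± 0.62 below *Naip1* on the log2 scale. With the pairs of *Nlrp9b* left out of the adjustment, an alternative added after seeing the data, the same 3 of the other 15 pairs passed (exact test, adjusted p = 0.039). With 7 mice the smallest p of the test is 0.016. Then 8 of the 18 pairs passed without mouse 7 and none without any other mouse. There 6 to 10 pairs had an unadjusted p under 0.05 in this test. These counts take in the pairs of *Nlrp9b*, which are no test.

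**Figure D3:**
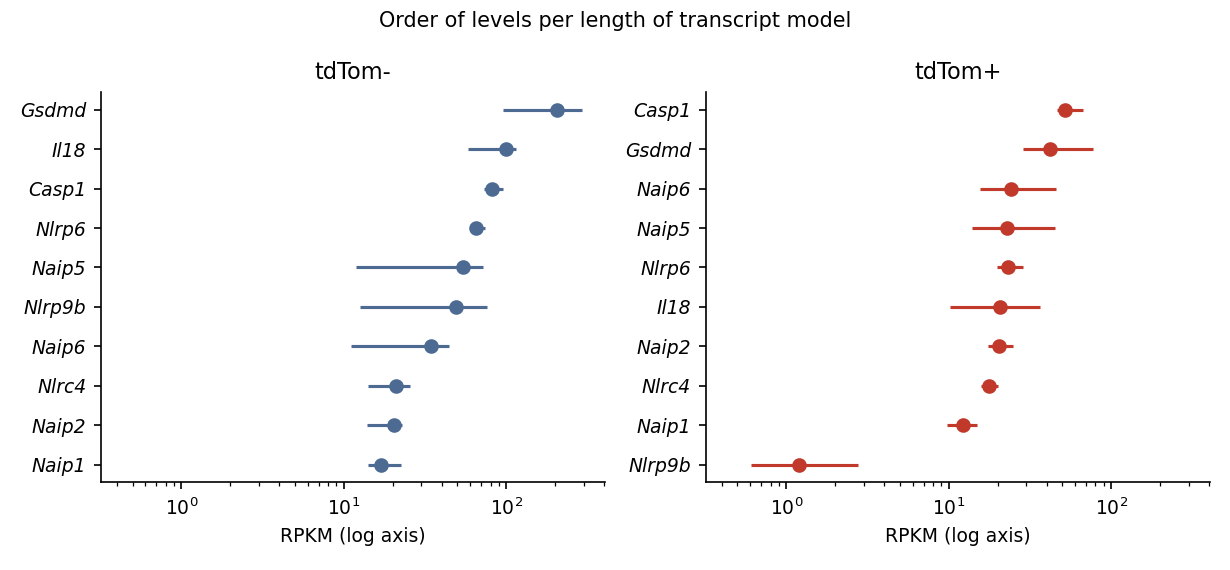
RPKM of the 10 genes in tdTom- and tdTom+ on a shared log axis, ordered by mean log2 RPKM, with points at the median and lines from the lowest to the highest of 8 libraries. *Gsdmd* led in tdTom- and *Casp1* in tdTom+, and *Nlrp9b* went from the sixth place to the last.

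The genes differed in how much they varied between mice of the same fraction. In tdTom- the SD of log2 CPM over mice was 0.93 for *Nlrp9b*, 0.87 for *Naip5*, 0.66 for *Naip6* and 0.53 for *Gsdmd*, against a median of 0.20 over the 8663 genes with at least 10 CPM there. Only 0.727% of those genes varied more than *Nlrp9b* and 0.958% more than *Naip5*. *Nlrp6* and *Casp1* varied little, with an SD of 0.11 and 0.14. Without mice 7 and 8 the SD was 0.35 for *Nlrp9b*, 0.28 for *Naip5*, 0.20 for *Naip6* and 0.24 for *Gsdmd*. The median over all genes was not computed without these mice, so whether the 4 genes still stood out was not tested. In tdTom+, *Naip5* and *Naip6* again varied more than most genes, with an SD of 0.58 and 0.56 against a median of 0.16 over 8891 genes, and *Il18* had an SD of 0.54.

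A mouse with a high level in one fraction tended to have a high level in the other for some of the genes. This relation was chosen for a test after seeing the data, and 10 were computed, with exact two-sided permutation p over the 8 mice. For *Nlrp9b*, Pearson's r between the log2 CPM of both fractions was 0.89 (exact p = 0.0033, adjusted p = 0.012) and Spearman's rho 0.90 (exact p = 0.0046, adjusted p = 0.011). Without the 2 mice farthest from the median, 7 and 8, r was 0.89 (exact p = 0.011). For *Gsdmd*, r was 0.89 (exact p = 0.0037, adjusted p = 0.012) and rho 0.98 (exact p = 4.0e-04, adjusted p = 0.0040), and without mice 7 and 8 r was 0.96 (exact p = 0.0028). For *Naip5*, r was 0.82 (exact p = 0.0090, adjusted p = 0.022) and rho 0.90 (exact p = 0.0046, adjusted p = 0.011), and without these mice r was 0.84 (exact p = 0.028). The mouse-to-mouse order of these 3 genes was thus alike in the libraries of both fractions. For *Nlrp9b* the mean in tdTom+ was 3.29% of that in tdTom-, beside 8.31% to 19.3% for the absorptive markers. The part of absorptive cells in the tdTom+ levels, and so in these relations, was not tested.

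*Casp1* had an r of 0.89 (exact p = 0.0029, adjusted p = 0.012) that fell to 0.70 (exact p = 0.12) without mice 1 and 5, and *Il18* one of 0.85 (exact p = 0.017, adjusted p = 0.033) that fell to 0.20 (exact p = 0.76) without mice 5 and 7. The remaining genes did not pass the threshold, with r from -0.08 for *Nlrc4* to 0.74 for *Naip6*. Libraries of a mouse share an animal and its handling, and over the 8138 genes with at least 10 CPM in both fractions the median r was 0.47. An r as high as that of *Nlrp9b* was met by 4.82% of these genes, as that of *Gsdmd* by 5.41% and as that of *Naip5* by 11.8%.

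**Figure D4:**
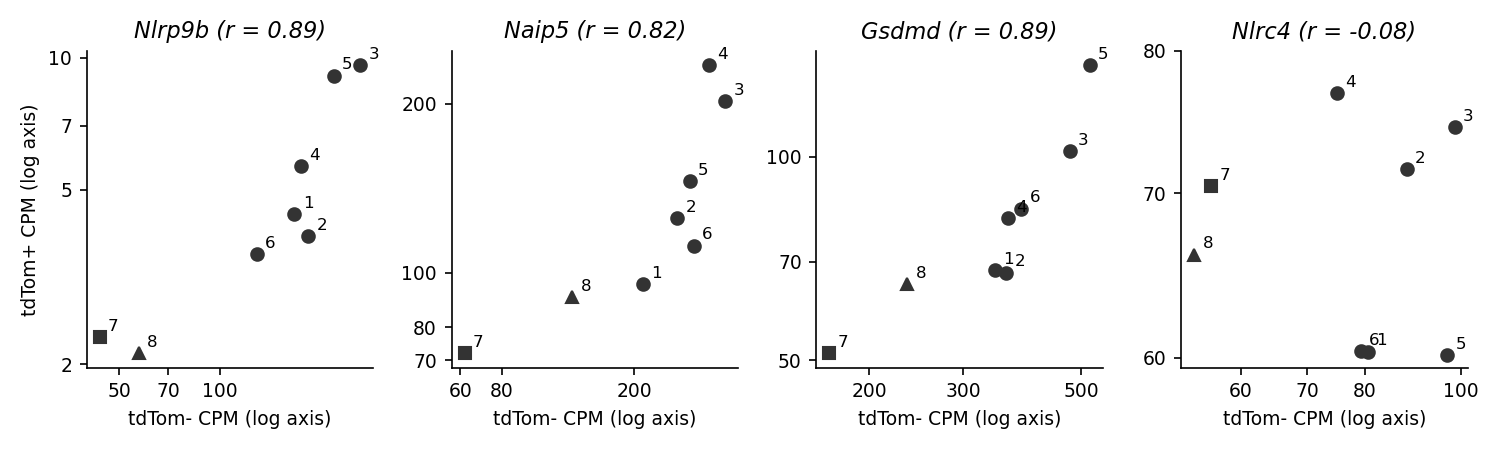
Level of 4 genes in tdTom+ against tdTom- of the same mouse, in TMM-normalised CPM on log axes, each point a mouse with its number, a square for mouse 7 and a triangle for mouse 8, and Pearson's r of log2 CPM in each title. *Nlrp9b*, *Naip5* and *Gsdmd* kept their order of mice across the fractions (r of 0.89, 0.82 and 0.89), and *Nlrc4* did not (r of -0.08).

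Levels were also compared, within a fraction, with mean log2 CPM scores of marker lists, in 50 relations with exact permutation p adjusted together. In tdTom-, 6 of 10 genes passed the threshold of 0.05 with the absorptive score, 5 with the proliferation score, 7 with the distal score (led by *Cubn*, while the ileal genes *Fabp6* and *Slc10a2* were below 1 CPM) and 0 with the lymphocyte score, where 4 had an unadjusted p under 0.05. For *Nlrp9b*, r with the absorptive score was 0.83 (exact p = 0.011, adjusted p = 0.033) and rho 0.55 (exact p = 0.17, adjusted p = 0.33), and without mice 7 and 8 r was -0.01 (exact p = 0.99). That relation therefore rested on the 2 libraries that stand apart. With the distal score *Nlrp9b* had an r of 0.89 (exact p = 0.0038, adjusted p = 0.018) and a rho of 0.90 (exact p = 0.0046, adjusted p = 0.038). Without mice 7 and 8 its r with that score was 0.43 (exact p = 0.40). The 2 libraries farthest from the median were those of mice 7 and 8 for the absorptive, distal and lymphocyte scores, of mice 3 and 7 for proliferation, and of mice 5 and 7 for the absorptive score in tdTom+. Without them 18 of the 20 relations that had passed kept their sign, 6 with an r of at least 0.75 in size, 7 with one of 0.5 to 0.75 and the other 5 with a smaller one. *Naip1* went from 0.82 to 0.81 with the distal score (exact p = 0.053) and from -0.84 to -0.82 with proliferation (exact p = 0.064). *Gsdmd* went from 0.97 to 0.81 (exact p = 0.060) and *Nlrc4* from 0.91 to 0.78 (exact p = 0.079) with the distal score. *Naip5* and *Naip6* went from 0.89 and 0.91 to -0.22 and 0.04 with the absorptive score. With 6 libraries left, 3 of the 50 relations had an unadjusted exact p under 0.05, near the share that this threshold gives by chance. Those were *Naip2* with the distal score (r = 0.81, p = 0.046), *Nlrp6* with the lymphocyte score (r = -0.88, p = 0.032) and *Naip5* with it (r = 0.93, p = 0.0069). Only 1 of them, that of *Naip2*, was among the 20 that had passed. That of *Naip5* had the opposite sign with all 8 libraries, with an r of -0.67 (exact p = 0.061).

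In tdTom+, *Il18* and *Casp1* passed with the absorptive score. *Il18* had an r of 0.95 (exact p = 0.0013, adjusted p = 0.014) and a rho of 0.90 (exact p = 0.0046, adjusted p = 0.038), with an r of 0.69 (exact p = 0.13) without mice 5 and 7. *Casp1* had an r of 0.84 (exact p = 0.015, adjusted p = 0.040) and a rho of 0.86 (exact p = 0.011, adjusted p = 0.054), with an r of 0.78 (exact p = 0.068) without these mice. *Nlrp9b* had an r of 0.48 (exact p = 0.24, adjusted p = 0.30). The summed absorptive level in tdTom+ was 1563 to 6021 CPM against 14550 to 38346 CPM in tdTom-, and its part in the levels of the 10 genes in tdTom+ was not tested.

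The genes whose levels over the 8 tdTom- libraries were most like those of *Nlrp9b*, among 8662 genes with at least 10 CPM there, were *Zc3h7a*, *Srcap*, *Npc1*, *Atf7ip* and *Gcc1*, with Pearson's r of 0.99 each in log2 CPM. *Npc1* encodes a lysosomal cholesterol transporter and *Srcap* a chromatin remodelling enzyme. Without mice 7 and 8 their r was 0.86 to 0.92 over 6 libraries, and in tdTom+ it was 0.21 to 0.76. Their own differences between fractions were small beside that of *Nlrp9b*, with log2 fold changes from -1.08 for *Npc1* to 0.07 for *Gcc1*. Among the 9 other inflammasome genes the most alike was *Nlrc4*, at rank 142 with an r of 0.96 and 0.82 without mice 7 and 8. It was followed by *Naip6* at rank 198 and *Gsdmd* at rank 200. The r of *Naip6* and *Gsdmd* was 0.95 each, and 0.62 and 0.68 without mice 7 and 8. *Casp1* and *Nlrp6* had an r of 0.15 and -0.15. These correlations are a description over 8 libraries of a fraction, each from another mouse.

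The other genes of the pathway were taken from lists of sensors, adaptors and regulators, gasdermins, IL-1 family genes and further NLR genes. They were tested with edgeR's quasi-likelihood test (adjusted p under 0.01, Benjamini-Hochberg over 15323 genes). Of all genes tested, 27.0% were lower and 22.7% higher in tdTom+, or 49.6% in either direction, and 30.0% were lower and 25.8% higher with the mouse as a block. Of the 9 other sensors, 2 passed the filter on low counts. *Nlrp1b*, a sensor of bacterial protease activity, fell from 14.2 ± 3.87 to 7.02 ± 1.25 CPM (SD, n = 8 each, log2 fold change -1.02, SE 0.17, adjusted p = 5.1e-05, edgeR), in 8 of 8 mice. *Aim2*, a sensor of DNA in the cytosol, was near 1 CPM in both fractions and did not pass the test (adjusted p = 0.34, edgeR). *Nlrp3*, the best known sensor of macrophages, had 0.159 ± 0.146 CPM in tdTom- against 0.0223 ± 0.0240 CPM in tdTom+, with at most 10 counts in a library, and *Nlrp1a*, *Nlrp10*, *Nlrp12* and *Mefv* were below 1 CPM as well.

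Of 15 adaptors, caspases and regulators, 3 rose in tdTom+, 4 fell and 8 did not pass the test, shares near those of all genes. *Pycard*, the adaptor ASC that links NLRP6 and NLRP9B to caspase-1, fell from 169 ± 43.7 to 108 ± 20.4 CPM (log2 fold change -0.64, SE 0.14, adjusted p = 8.6e-04, edgeR), in a proportion close to that of *Casp1*. *Irf8*, a transcription factor gene known to control *Naip* genes in macrophages, fell by 0.77 on the log2 scale (adjusted p = 6.0e-05, edgeR). *Irf1*, of the same family, fell by 0.40 (adjusted p = 0.0048, edgeR) and *Fadd*, a death receptor adaptor, fell by 0.51 (adjusted p = 4.7e-06, edgeR). *Nek7*, a kinase that NLRP3 requires, rose from 5.05 ± 0.942 to 15.6 ± 1.77 CPM (log2 fold change 1.62, SE 0.11, adjusted p = 6.1e-10, edgeR). *Gbp2* and *Gbp7*, interferon-induced GTPases, rose by 4.48 and 1.25 on the log2 scale (SE 0.66 and 0.30, adjusted p = 9.3e-06 and 0.0012, edgeR). *Gbp2* lay between 5.08 and 54.2 CPM in tdTom+, with a median of 6.26 CPM, and at most at 2.01 CPM in tdTom-.

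*Casp4*, which encodes the non-canonical caspase-11, had 17.5 ± 5.43 CPM in tdTom- against 24.8 ± 5.56 CPM in tdTom+ (adjusted p = 0.019, edgeR). It passed with the mouse as a block (adjusted p = 7.9e-05), and so did *Dhx15* and *Gbp3*, which made 6 genes higher and 4 lower. *Casp8*, *Ripk3*, the helicase genes *Dhx9* and *Dhx15*, and *Txnip*, which binds NLRP3, had log2 fold changes from -0.13 to 0.25 and did not pass. *Txnip* had 323 ± 34.3 CPM in tdTom- against 346 ± 48.6 CPM in tdTom+.

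Among 8 gasdermin and rupture genes that passed the filter, of 9 listed, 3 rose and none fell (edgeR, 3 lower at an unadjusted p under 0.05). *Gsdme*, a gasdermin cut by caspase-3, rose from 7.81 ± 1.40 to 45.2 ± 10.3 CPM (log2 fold change 2.53, SE 0.15, adjusted p = 9.2e-11, edgeR) with no overlap, the direction opposite to that of *Gsdmd*. *Gsdma2* rose from 0.298 ± 0.091 CPM, with 3 to 8 counts in a library, to 4.09 ± 0.831 CPM (log2 fold change 3.76, adjusted p = 6.7e-12, edgeR). *Ninj1*, which ruptures the plasma membrane after pore formation, rose to 11.8 ± 1.52 CPM (log2 fold change 0.71, adjusted p = 7.0e-05, edgeR). With at least 10 counts in every sample, which *Gsdma2* lacks in tdTom-, 2 genes of this list passed. With the mouse as a block the count was 7, since *Gsdmc*, *Gsdmc2*, *Gsdmc3* and *Gsdmc4* were then lower as well (block-adjusted p from 6.9e-06 to 7.8e-04, edgeR), genes whose log2 fold changes were -1.04 to -1.13 without the block.

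Of 14 IL-1 family, receptor and related genes, 8 passed the filter, of which 1 rose and 3 fell. The receptor gene *Il18r1* rose from 0.455 ± 0.175 to 3.11 ± 0.584 CPM (log2 fold change 2.77, SE 0.21, adjusted p = 1.8e-09, edgeR), while its ligand gene *Il18* was the lower one in tdTom+. *Il1b*, the other cytokine that caspase-1 matures, was scarce, with 10 to 116 counts in tdTom- and 0 to 2 in tdTom+ (adjusted p = 2.2e-06, edgeR). The summed level of 8 myeloid markers was 11.4 to 36.3 CPM in tdTom- and 9.01 to 16.8 CPM in tdTom+, and its part in *Il1b* was not tested. *Il10rb*, a receptor chain for IL-10 and IL-22, fell by 0.31 on the log2 scale (adjusted p = 0.0060, edgeR), and *Il22ra1*, the chain that pairs with it for IL-22, did not pass (44.9 ± 12.6 and 43.0 ± 5.12 CPM, adjusted p = 0.73, edgeR). *Il18bp*, the soluble inhibitor of IL-18, was at 5.15 ± 1.88 and 4.64 ± 3.41 CPM and did not pass either.

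Of 17 further NLR genes, 7 passed the filter, of which *Nlrx1*, a mitochondrial NLR, rose by 0.56 on the log2 scale (adjusted p = 3.0e-04, edgeR) and *Nlrc3* fell by 1.28 on that scale (adjusted p = 5.2e-05, edgeR). With the mouse as a block 5 passed, with *Nod1* higher and *Nlrc5* and *Ciita* lower, the latter 2 being regulators of MHC genes that reached 12.6 and 31.5 CPM in their highest tdTom- library. The ovarian NLR genes *Nlrp2*, *Nlrp4a* to *Nlrp4g*, *Nlrp5* and *Nlrp14* had at most 2 counts in a library.

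**Figure D5:**
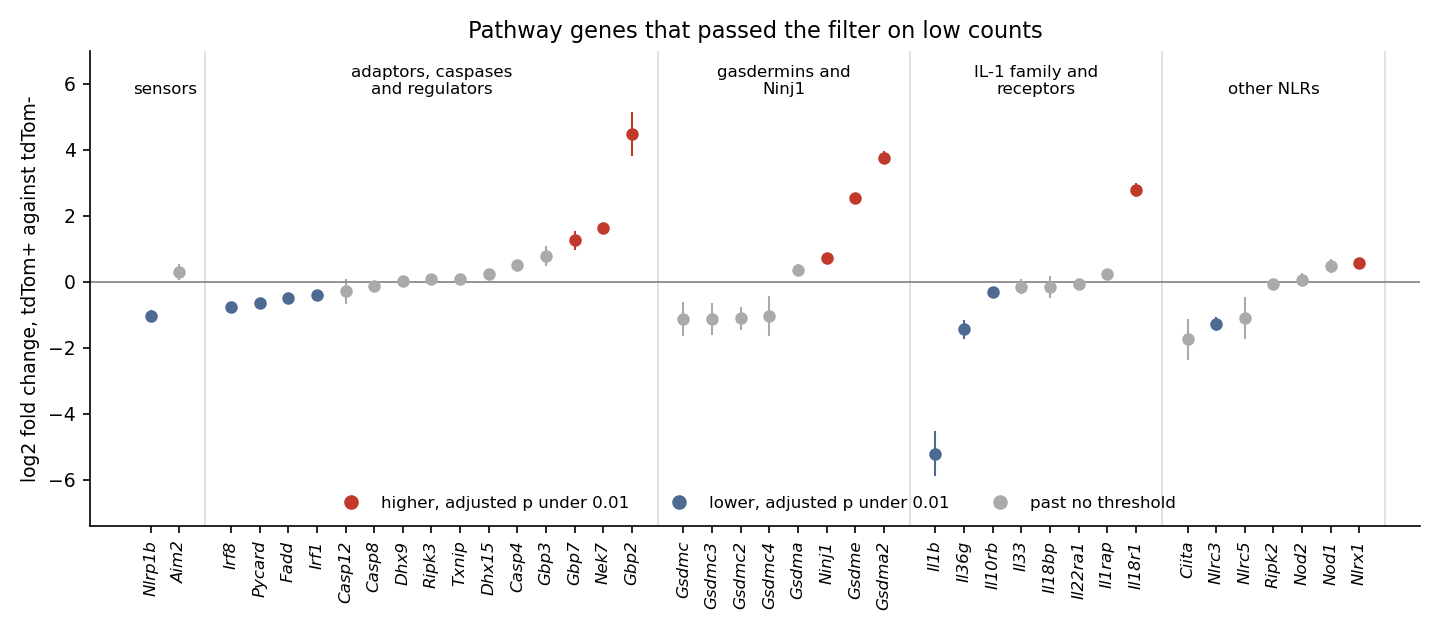
Log2 fold change (tdTom+ against tdTom-) with its SE for the 40 list genes that passed the filter on low counts, in order within each list, in red where higher and blue where lower at an adjusted p under 0.01 (edgeR). *Gbp2*, *Gsdma2*, *Il18r1* and *Gsdme* had the highest values and *Il1b*, with 0 to 2 counts in tdTom+, the lowest.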

How the data were processed

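The authors aligned the 50-base single-end reads to GRCm38 with TopHat2 and obtained raw counts per Ensembl gene with featureCounts (the file headers give version 1.5.0-p1, while the submitters' processing notes name Subread 1.5.2). Reads were assigned on the reverse strand, as primary alignments only, and no read was given to several overlapping genes, so a read with equally good alignments in several paralogs counts once, at an arbitrary one. The deposited counts were used unnormalised. Same-numbered libraries come from the same mouse per the sample titles and the series design, and their deviations from the fraction means correlated with r of 0.24 to 0.63, against -0.46 to 0.47 with a mean of -0.06 for different mice.

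The 10 genes, the pathway and marker lists and the tests were chosen with earlier results of these data known. Symbols were matched for 44585 of 45513 identifiers through GENCODE M21 and RefSeq names. Counts were analysed with edgeR 4.0.16 in R 4.3.3 (filterByExpr by fraction, TMM, quasi-likelihood F-test without a block, as none is given in the study's methods, threshold 0.01), which tested 15323 genes. SE is the log2 fold change divided by the root of F. Log2 CPM used a prior count of 2, and a score is its mean over a list. Exact sign-flip tests ran over 256 sign patterns and exact permutation tests over 40320 orders of the mice. The fit was tested on simulated data.

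Alternatives were RLE and total-count scaling, TMM without the 10 most counted genes, DESeq2 1.42.0, limma-voom (limma 3.58.1), other filters, thresholds, priors and scales, summed paralogs, the mouse as a replicate block, and leaving out each mouse. Genes named were the 10, *Atoh1*, *Epcam*, *Nlrp9a*, *Nlrp9c*, list genes with at least 20 CPM in a fraction, up to 4 per list with the largest fold changes past the threshold and at least 1 CPM, the 5 genes most like *Nlrp9b*, and the highest 1 or 2 markers of a list. List genes named for a call that the block changed, for their low counts or as receptors and inhibitors of the 10 were added after their values were seen. Sequences came from GENCODE M21 transcripts and the RefSeq promoter table, aligned with MAFFT 7.526. At these totals 3 counts correspond to 0.123 to 0.191 CPM, which limits what can be said of scarce genes.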

Additional observations from a re-analysis of the deposited data

Results flagged for a closer look

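In 28 sets of 8 libraries (10 genes and 4 marker scores in each fraction), the gap of the highest or lowest library to its nearest neighbour was compared with Dixon's 95% limit for the range. The limit was passed in 2 sets, and about 1.4 are expected by chance. *Il18* was lowest in the tdTom- library of mouse 7, at 5.38 log2 CPM against 6.06 to 6.35 in the other mice, a gap of 0.703 of the range. The absorptive score was lowest in the same library, at 10.5 against 11.4 to 12.0, a gap of 0.609 of the range. *Nlrp9b*, *Naip5* and *Gsdmd*, which were also low in that library, did not pass the limit, and mouse 8 was the second lowest for each of them.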

How the results depend on the processing

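The log2 fold changes of the 9 genes other than *Naip2* had the same sign under every alternative run. *Naip2* went from 0.08 to -0.01 without mice 7 and 8, and the summed counts of the *Naip* genes had -0.40, with or without *Naip3*. *Casp1* had -0.49 with at least 10 counts in every sample and -0.52 without mouse 3, against -0.61. Over all genes 7606 were called, 3434 where a log2 fold change of 1 or more in size was also required, which left 3 of 7 adaptor and regulator genes and 1 of 2 further NLR genes. With the replicate block, which pairs the libraries of a mouse, 7 gasdermin and rupture genes in place of 3 and 5 further NLR genes in place of 2 passed, and *Casp4*, *Dhx15* and *Gbp3* were called as well. Among the other sensors 1 passed, against 3 with DESeq2, 4 without the filter on low counts and 3 without mice 7 and 8. IL-1 family calls, 4 in the main result, were 7 without the filter and 0 with at least 10 counts in every sample (edgeR, 2 of 5 at an unadjusted p under 0.05), where 1 further NLR gene passed.

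Leaving out each mouse gave 1 to 2 other sensors (2 without mouse 7) and 2 to 4 IL-1 family genes (2 without mouse 4 or mouse 5). It gave 2 to 4 further NLR genes (4 without mouse 7) and 0 to 21 relations to scores (20 with all mice). In the level order 0 to 8 of the 18 neighbour pairs passed with 7 mice (6 to 10 at an unadjusted p under 0.05, exact sign-flip test). These counts take in the 3 pairs with *Nlrp9b*, which are no test. Of the other 15 pairs 3 passed with all mice. The relations numbered 13 with total counts and 0 with the median over the panel genes (22 unadjusted), and they were 0 without mouse 7 (15 unadjusted), 6 without mouse 8, 8 without mouse 5 and 13 without mouse 3. The cause of these shifts was not tested. Depth limits the scarce genes, and the true division of reads among *Naip* genes was not tested.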
